A study of Mus musculus with 23 samples.

Results

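Expression was followed for 10 cytokine and chemokine genes that fibroblasts are known to use, namely Il6, Ccl2, Ccl7, Cxcl1, Cxcl5, Cxcl12, Csf1, Lif, Il11 and Tslp, out of 55487 genes in the deposited count table. The rule that picks them is a list of gene symbols, drawn up with earlier results of these data known, and all 10 passed the filter on low counts that left 15748 genes for testing. Reads had been counted in 23 RNA-seq libraries of primary mouse embryonic fibroblasts (MEFs), cultures grown from dissociated embryos, of the FVB/NJ strain. Cells of 4 homozygous glucocorticoid receptor (GR) genotypes were used. GRwt/wt cells carry the unmodified receptor, GRD/D cells a point mutation in the dimer interface of its DNA-binding domain, GRL/L cells a point mutation in its ligand-binding domain, and GRD+L/D+L cells both. Each genotype was given solvent (vehicle) or 10 nM dexamethasone (Dex), a synthetic GR ligand, for 5 h, with 3 libraries in each of the 8 groups except GRD/D vehicle, which had 2. All cells were kept in medium with serum, and no inflammatory stimulus was part of the design. The study describes separate mice as the source of the replicate cultures.

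Stromal cells use these secreted proteins to recruit and sustain leukocytes and to signal to neighbouring cells. Many of the genes are switched on by NF-kB and AP-1 during inflammation, and GR bound to a glucocorticoid can restrain them, which is a large part of how glucocorticoids act against inflammation. Ccl2 and Ccl7 attract monocytes, Cxcl1 and Cxcl5 attract neutrophils, and Cxcl12 retains haematopoietic progenitors in the bone marrow. Csf1 keeps macrophages alive, Il6, Lif and Il11 signal through the shared receptor subunit gp130, and Tslp acts on dendritic and lymphoid cells.

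Expression was very uneven within the group. Divided by exon length, so that genes can be compared, the mean level over the 23 libraries, in CPM (counts scaled to library size with edgeR's TMM factors) per kb, was 71.4 for Ccl7 (range 9.71 to 168), 33.1 for Csf1 (23.5 to 52.2), 29.7 for Cxcl12 (10.9 to 98.9) and 18.1 for Ccl2 (3.55 to 39.9). It was 5.00 CPM per kb for Cxcl5 (0 to 17.8), 1.53 for Lif (0.799 to 3.37), 1.42 for Cxcl1 (0.171 to 4.07) and 1.06 for Il11 (0.615 to 1.60). Tslp averaged 0.446 CPM per kb (0.111 to 1.78) and Il6 0.0968 (0 to 0.473). The ranges of Ccl7, Csf1, Cxcl12 and Ccl2 overlapped one another, as did those of Cxcl5, Lif, Cxcl1 and Il11. Il6 had between 0 and 20 counts per library, and only 2 libraries reached the filter's cutoff of 0.541 CPM, which is also the number of libraries the filter requires. One of these 2 libraries was GRD/D vehicle and the other GRD+L/D+L Dex, so Il6 was tested only because of its highest libraries. Tslp reached the cutoff in 10 libraries (3 to 44 counts), Cxcl5 in 19, Cxcl1 in 22 and the other 6 genes in all 23.

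**Figure D1:**
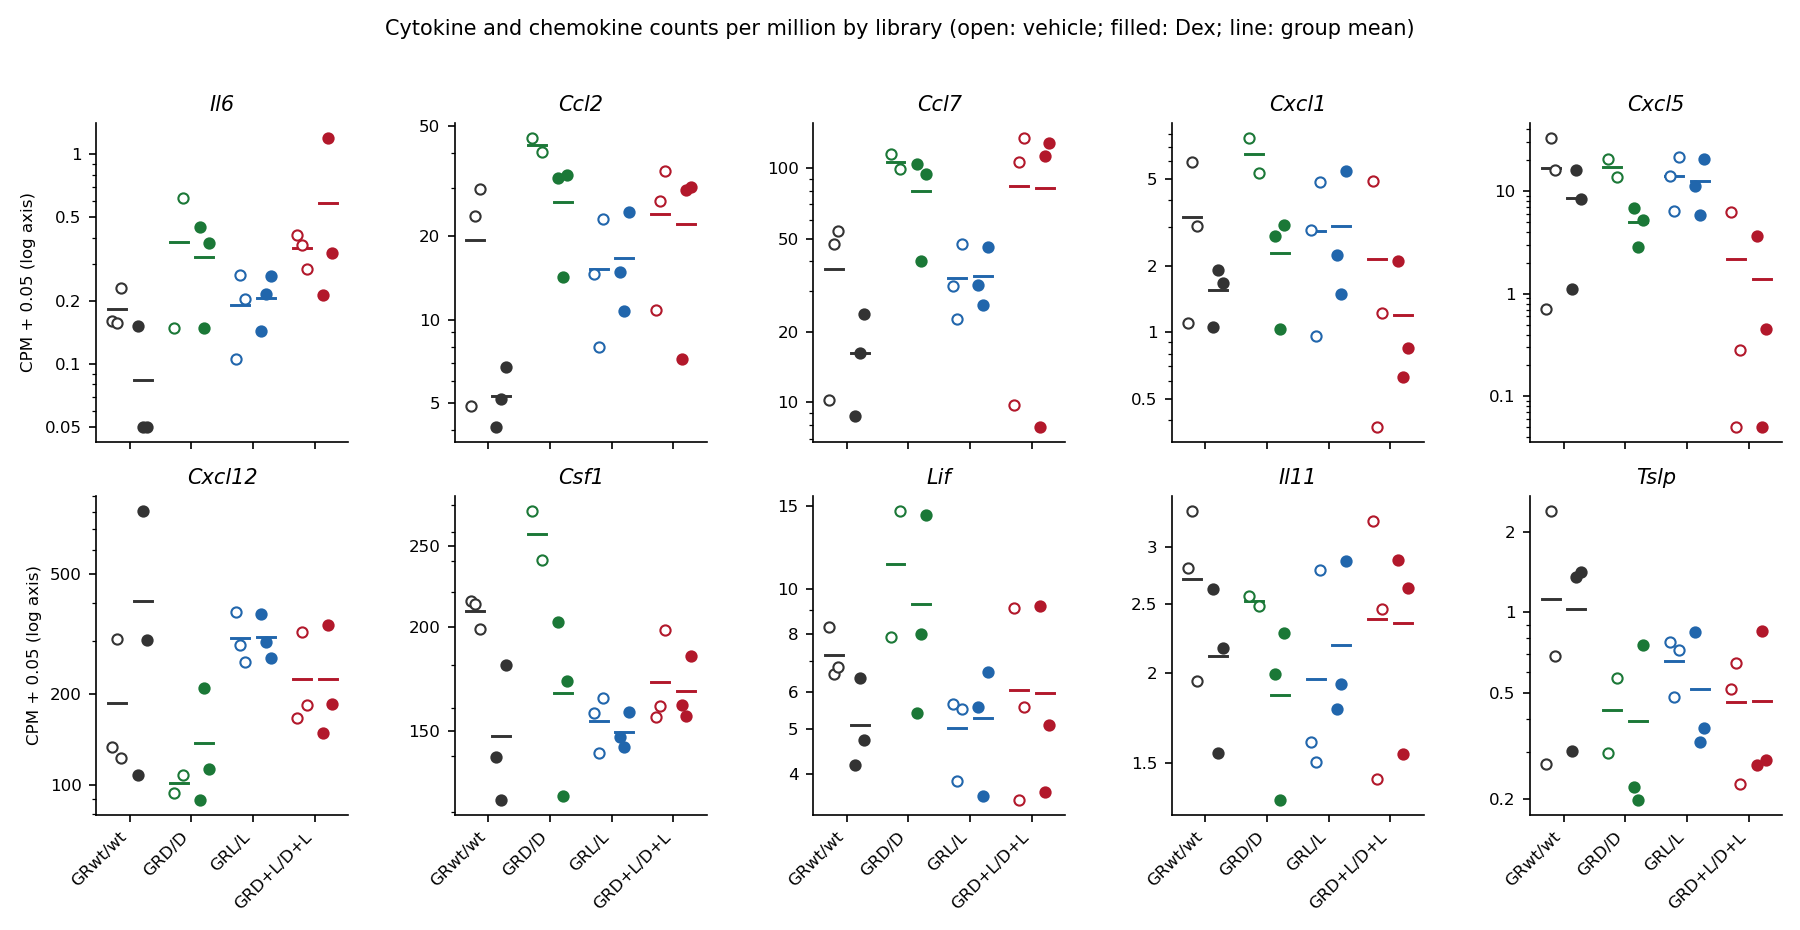
CPM of each of the 10 genes, with 0.05 added so that libraries at 0 can be drawn on a log axis, in 23 libraries of 4 genotypes. Open circles are vehicle and filled circles Dex libraries, horizontal lines are group means; the 3 filled GRwt/wt circles of Ccl2 (4.04 to 6.68 CPM) lie below every library of the other 3 genotypes, and the y axis differs between panels.

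The libraries held 16.5 to 23.1 M counts. In every library 9 of 9 fibroblast markers reached 1 CPM. Summed markers of epithelial cells (at most 5.79 CPM), endothelial cells (at most 20.8 CPM) and skeletal muscle (at most 1.19 CPM) were low. The sum of 18 macrophage markers, by contrast, ran from 9.77 to 5843 CPM. In GRwt/wt, vehicle replicate 3 held 5843 CPM and the remaining 5 libraries between 20.6 and 121 CPM. It was 9.77 to 97.3 CPM in GRD+L/D+L, 360 to 892 CPM in GRL/L and 319 to 2044 CPM in GRD/D. Between 0 and 6 of the 18 markers were at 0 in a library, with 6 at 0 in GRD+L/D+L Dex replicate 2 and 5 in each of GRD+L/D+L vehicle replicate 2 and GRwt/wt Dex replicate 3. GRwt/wt vehicle replicate 1 stood apart in another way, with a highest rank correlation to any library of 0.916, where the other 22 reached 0.973 or more. For a number of results that use either library, values without it are also given. In bulk RNA, fewer cells of a type and less RNA per cell cannot be told apart.

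Of the 10 genes, Ccl2, Ccl7 and Cxcl5 had no promoter in the RefSeq table of GRCm38.p6 used here, and Tslp was left out by choice. The search covered the other 6 (Il6, Cxcl1, Cxcl12, Csf1, Lif and Il11). Each was searched on both strands, over the 250 bases before a RefSeq start of the gene (Il11 has 2), for the kappaB consensus bound by NF-kB, the AP-1 site TGANTCA and the GR half-site AGAACA. At least 1 kappaB match lay upstream of 4 of the 6 (Il6, Cxcl1, Csf1 and Lif), against 7.25% of 32851 promoters in the table. An AP-1 match lay upstream of 3 of the 6 (Il6, Lif and Il11), against 6.75%, in Il11 only before a start that lies inside the gene as GENCODE draws it and not before its outer start, and a GR half-site upstream of 1 (Csf1), against 16.1%. The 3 sequences, 5' to 3' on the gene's strand, are shown because they hold the kappaB letters beside genes whose response to Dex is described next, Il6 and Cxcl1 with large fitted changes and Csf1 with the smallest error. Capitals mark the matches. In Il6 these are the AP-1 site followed by the kappaB site, in Cxcl1 a pair of overlapping kappaB matches on opposite strands, and in Csf1 the kappaB site followed by the half-site. A match describes the letters only.
Il6 promoter, chr5:30012864-30013113, plus strand: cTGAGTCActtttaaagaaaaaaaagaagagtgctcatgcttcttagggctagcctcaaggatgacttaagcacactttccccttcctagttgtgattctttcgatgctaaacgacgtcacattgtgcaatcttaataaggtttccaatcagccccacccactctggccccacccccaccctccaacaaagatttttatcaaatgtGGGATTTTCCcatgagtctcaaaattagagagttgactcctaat
Cxcl1 promoter, chr5:90890995-90891244, plus strand: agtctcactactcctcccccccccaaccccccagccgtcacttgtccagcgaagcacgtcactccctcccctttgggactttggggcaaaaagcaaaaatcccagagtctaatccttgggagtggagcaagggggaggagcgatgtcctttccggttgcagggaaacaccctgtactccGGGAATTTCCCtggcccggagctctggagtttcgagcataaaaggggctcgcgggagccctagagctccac
Csf1 promoter, chr3:107760470-107760719, minus strand: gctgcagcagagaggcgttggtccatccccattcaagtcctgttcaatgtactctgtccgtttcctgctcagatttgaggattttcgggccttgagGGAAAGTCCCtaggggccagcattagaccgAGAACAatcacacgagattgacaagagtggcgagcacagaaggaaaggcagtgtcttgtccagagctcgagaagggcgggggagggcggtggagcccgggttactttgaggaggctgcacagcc

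The first comparison asked how the 10 genes respond to a low dose of Dex through the unmodified receptor. In GRwt/wt the log2 fold change (LFC, Dex against vehicle) was below 0 for 9 of the 10 genes, with a median of -0.74, where 50.8% of all tested genes were below 0 and their median was -0.009. These values moved with single libraries. Without vehicle replicate 2 it was 7 of the 10, with a median of -0.47, without Dex replicate 1 it was 8 (median -0.48), without vehicle replicate 3 it was 9 (median -0.66), and without both vehicle replicates 1 and 3 it was 9 (median -1.38). With GRD+L/D+L Dex replicate 2 left out, Il6 was no longer tested and 8 of the other 9 were below 0 (median -0.50). In the same comparison 18 of 18 macrophage markers had an LFC below 0, with a median of -5.13, all 18 at an unadjusted p under 0.05 and none called, and the level of these markers in vehicle came from replicate 3 (5843 CPM summed, against at most 121 CPM in the other GRwt/wt libraries). None of the 10 cytokine genes was called, and 2 (Ccl2 and Csf1) had an unadjusted p under 0.05. A call required both an absolute LFC of at least 1 and an edgeR p that stayed at or under 0.05 after Benjamini-Hochberg adjustment over all tested genes. Across all genes 0.159% were called, 25 genes, all of them higher, and 2454 had an unadjusted p under 0.05. That direction was not kept throughout, since 374 genes (182 higher, 192 lower) were called without vehicle replicate 2, and DESeq2 called 121 higher and 165 lower. Genes that glucocorticoids are known to induce were among the 25. Fkbp5, an immunophilin of the GR complex, had an LFC of 3.49 (adjusted p 2.67e-06, SE 0.27), Per1, a clock gene with GR sites, one of 1.85 (SE 0.19, adjusted p 0.000102) and Tsc22d3, which encodes the glucocorticoid-induced leucine zipper, one of 1.92 (SE 0.27, adjusted p 0.00272). Dusp1, a phosphatase that limits MAP kinase signalling to cytokine genes, had an LFC of 0.98 (SE 0.19, adjusted p 0.0335), under the fold threshold. When only GRwt/wt libraries entered the model none of these genes was called, at LFCs of 3.50, 1.87 and 1.93 for Fkbp5, Per1 and Tsc22d3 (adjusted p 0.456, 0.97 and 0.456).

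Ccl2 (ENSMUSG00000035385, GRCm38 chromosome 11, 82035571 to 82037453), the main monocyte attractant, had 4.85, 23.7 and 29.7 CPM in the 3 GRwt/wt vehicle libraries and 4.04, 5.11 and 6.68 CPM with Dex. Vehicle replicate 1, the library that stood apart, lay among the Dex libraries, and the other 2 lay above all of them. The LFC was -1.88 (SE 0.64, unadjusted p 0.00888, adjusted p 0.188). With the replicate number as a block Ccl2 was called lower (LFC -1.60, adjusted p 0.0499), although of the 3 same-numbered GRwt/wt pairs only number 1 deviated together from the group means (r 0.599, against 0.035 and -0.019 across genes). Without vehicle replicate 1 it was -2.34 (adjusted p 0.0623), without vehicle replicate 3, the library rich in macrophage transcripts, -1.41 (adjusted p 0.227), and without both -2.19 (adjusted p 0.251). Gm17268 overlaps the span of Ccl2 on the other strand, and whether their exons overlap was not checked. Where they do, reads of the 2 genes cannot be told apart unless strand was used in counting. Ccl7 (ENSMUSG00000035373, chromosome 11, 82045712 to 82047525), the neighbouring monocyte attractant, had 10.2, 47.6 and 53.6 CPM in vehicle and 8.69, 16.3 and 23.8 CPM with Dex, with the same library low in vehicle. Its LFC was -1.19 (SE 0.85, adjusted p 0.535), and it was -1.64 without vehicle replicate 1 and -0.80 without vehicle replicate 3.

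Csf1 (ENSMUSG00000014599, chromosome 3, 107741048 to 107760469, minus strand), the macrophage growth factor, was measured with far less spread. It had 215, 213 and 199 CPM in GRwt/wt vehicle and 140, 124 and 180 CPM with Dex, so that the groups did not overlap. The LFC was -0.50 (SE 0.16, unadjusted p 0.00696, adjusted p 0.177), a level 0.708 times that in vehicle, and it stayed between -0.67 and -0.39 when any GRwt/wt library was left out. Lif and Il6 were the other 2 of the 10 genes whose vehicle and Dex CPM did not overlap in GRwt/wt, as was the case for 9.46% of all genes tested. Lif had 8.22, 6.5 and 6.75 CPM in vehicle and 4.14, 6.37 and 4.68 CPM with Dex (LFC -0.50, SE 0.41, adjusted p 0.598), and its closest values were 6.5 and 6.37. For Il6 the counts were 2, 2 and 4 in vehicle and 2, 0 and 0 with Dex, a ratio of vehicle to Dex of 3.89 with an exact 95% interval of 0.776 to 37.6 from counting error alone. In these libraries 3 counts correspond to between 0.136 and 0.187 CPM.

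The neutrophil attractants Cxcl1 and Cxcl5, both on chromosome 5 (90891241 to 90893115 and 90759360 to 90761624), were low in both number 1 libraries of GRwt/wt. Cxcl1 had 1.05, 5.91 and 2.99 CPM in vehicle and 1.01, 1.87 and 1.62 CPM with Dex (LFC -1.14, SE 0.83, adjusted p 0.546), and the LFC was -1.55 without vehicle replicate 1, -0.44 without vehicle replicate 2 and -1.18 without vehicle replicate 3. Cxcl5 had 0.662, 33.1 and 16.2 CPM in vehicle and 1.06, 15.8 and 8.36 CPM with Dex (LFC -0.98, SE 1.33, adjusted p 0.745), and its LFC was -1.53 without vehicle replicate 1 and 0.00039 without vehicle replicate 2. Cxcl12 (chromosome 6, 117168535 to 117181367) was the 1 gene of the 10 with a higher fitted level, at 134, 304 and 123 CPM in vehicle against 108, 809 and 301 CPM with Dex (LFC 1.12, SE 0.54, adjusted p 0.334). Its 809 CPM in Dex replicate 2 was the highest Cxcl12 value of all 23 libraries, and without it the LFC was 0.13. Il11 had an LFC of -0.36 (SE 0.37) and Tslp, with 4, 44 and 14 counts in vehicle and 5, 28 and 22 with Dex, one of -0.13 (SE 0.79). Another gene overlaps the span of Tslp on the other strand. Whether their exons overlap was not checked, so the Tslp counts may hold reads of that gene.

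**Figure D2:**
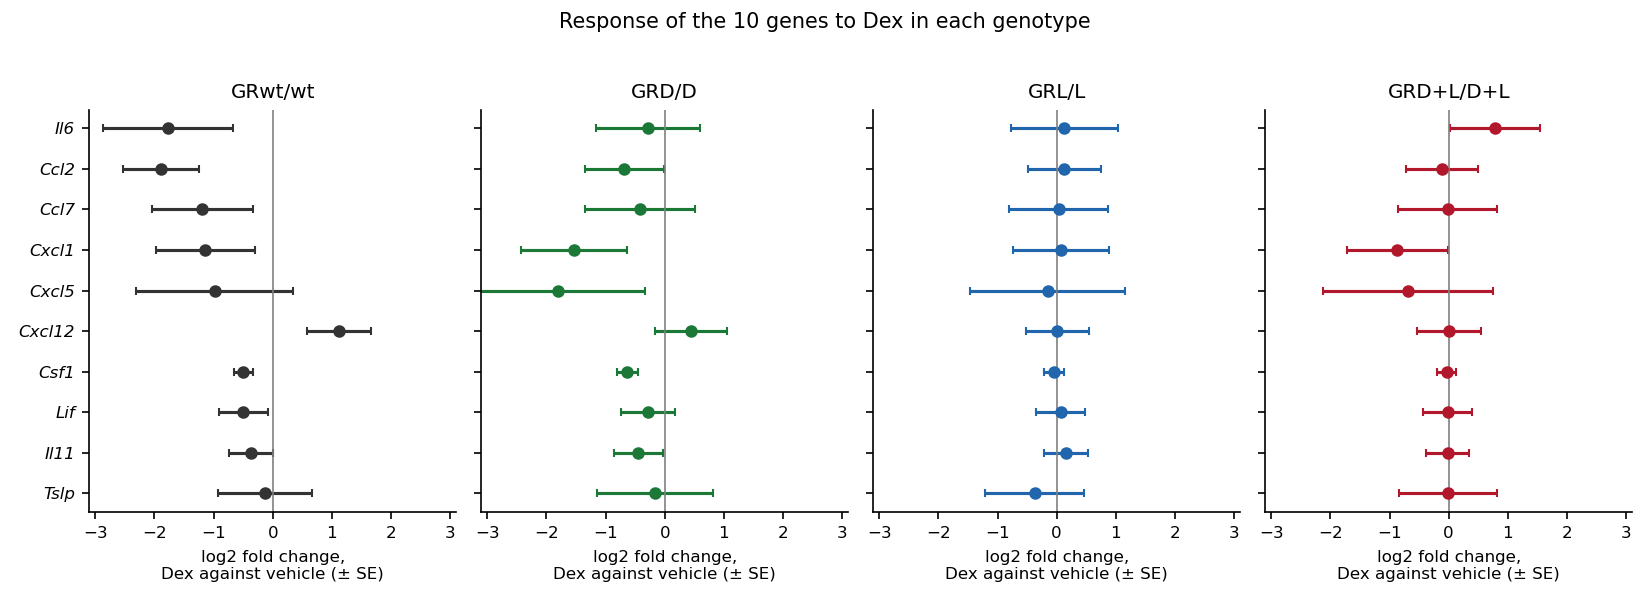
Log2 fold change of Dex against vehicle (x axis) for the 10 genes (y axis) in each of the 4 genotypes; points are edgeR estimates and bars 1 SE. In GRwt/wt and GRD/D 9 of 10 points lie left of 0 (medians -0.74 and -0.43). In GRD+L/D+L 8 of 10 lie left of 0, with all 10 between -0.87 and 0.78, and in GRL/L all 10 lie between -0.37 and 0.16.

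In GRD/D, where no gene in the genome-wide test was called (0% of genes, 154 at an unadjusted p under 0.05), 9 of the 10 genes again had an LFC below 0, with a median of -0.43 against 0.003 for all genes. Without vehicle replicate 2 it was 6 of the 10 (median -0.49), and without Dex replicate 2 it was 8, with a median of -0.22. The median was -0.65 without Dex replicate 1, -0.70 without Dex replicate 3 and -0.72 with the replicate number as a block. The macrophage markers lay on the other side, with 18 of 18 above 0 (median 0.83, none called). Csf1 had 276 and 241 CPM in vehicle and 203, 125 and 172 CPM with Dex, without overlap (LFC -0.63, SE 0.18, unadjusted p 0.0026, adjusted p 1). Leaving out any GRD/D library kept that LFC between -0.795 and -0.461. Cxcl1 had 7.64 and 5.28 CPM in vehicle and 2.69, 0.985 and 3.04 with Dex (LFC -1.53, SE 0.89), and Cxcl5 20.7 and 13.6 CPM against 6.81, 2.81 and 5.21 (LFC -1.80, SE 1.46), in both cases without overlap. Ccl2 had 45.4 and 40.1 CPM against 32.4, 14.2 and 33.4 (LFC -0.68, SE 0.67). With Il11, 5 of the 10 genes had GRD/D groups that did not overlap, all lower with Dex, where the groups of 21.3% of all genes did not overlap. Dex replicate 2 was the lowest library for Ccl2, Ccl7, Cxcl1, Cxcl5 and Csf1 in GRD/D, and it was also the GRD/D library with the highest macrophage marker sum (2044 CPM, 319 to 1134 CPM in the other 4). Whether that library's makeup had a part in these values was not tested.

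In the genotypes with the ligand-binding domain mutation again 0% of all genes were called, with 54 (GRD+L/D+L) and 43 (GRL/L) at an unadjusted p under 0.05. That model of group means does not use the pairs described below, so spread between cultures enters its SEs. With the replicate number as a block, 0 genes were called in either genotype. The median LFC of the 10 genes was 0.05 in GRL/L (3 of 10 below 0) and -0.02 in GRD+L/D+L (8 of 10 below 0), and neither count was stable. In GRL/L it was 9 of 10 without Dex replicate 3 (median -0.16) or without vehicle replicate 2 (median -0.14), and in GRD+L/D+L it was 4 of 10 without vehicle replicate 1 (median 0.18). In these genotypes, unlike in GRwt/wt and GRD/D, vehicle and Dex libraries with the same number deviated together from their group means and could be compared as pairs. The ratio of Dex to vehicle for Ccl2 was 1.02, 1.35 and 1.06 in the 3 GRL/L pairs and 0.663, 1.09 and 0.879 in the GRD+L/D+L pairs. For Ccl7 it was 1.01, 1.16 and 0.971 in GRL/L and 0.803, 1.06 and 0.946 in GRD+L/D+L. For Csf1 it was 0.935, 1.02 and 0.963 in GRL/L and 1.03, 0.972 and 0.931 in GRD+L/D+L. Apart from Ccl2 in GRL/L, where all 3 were above 1, the ratios of these genes lay on both sides of 1. In GRL/L the 3 ratios of Il11 (1.12, 1.29 and 1.03) were also above 1, and those of Cxcl5 (0.794, 0.915 and 0.961) below 1. Some genes with fewer counts spread further, but in GRD+L/D+L Lif (1.01, 1.04 and 0.912) and Il11 (0.880, 1.09 and 1.07) did not. In GRD+L/D+L the ratio for Cxcl1 was 0.429, 1.80 and 0.682, from 93, 7 and 20 counts in vehicle. That for Cxcl5 was 0.577 and 1.70 in the pairs with counts, and that for Il6 0.450, 3.59 and 1.22. The fitted LFC of Ccl2 was -0.11 (SE 0.61) in GRD+L/D+L, while GRL/L gave 0.13 (SE 0.61).

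A term for the difference in response between each mutant and the unmodified receptor was then tested. None of the 10 genes was called in any of the 3 tests, in which 0% (GRD/D), 0.0254% (GRL/L) and 0.0254% (GRD+L/D+L) of all genes were called, with 1119, 990 and 796 genes at an unadjusted p under 0.05. The difference of LFC for Ccl2 (mutant minus GRwt/wt) was 1.77 in GRD+L/D+L (adjusted p 0.969, SE 0.88), 2.01 in GRL/L (unadjusted p 0.035, adjusted p 0.785, SE 0.88) and 1.20 in GRD/D (adjusted p 0.869, SE 0.93). For Csf1 it was 0.46 in GRD+L/D+L (adjusted p 0.969, SE 0.23), 0.45 in GRL/L (adjusted p 0.796, SE 0.23) and -0.13 in GRD/D (adjusted p 0.941, SE 0.24). In the same 3 tests 18 of 18 macrophage markers had a difference above 0, with medians of 5.08, 5.20 and 5.95 in that order and none called, and 13, 16 and 18 of them had an unadjusted p under 0.05. Their part in the Ccl2 differences was not tested. Without GRwt/wt vehicle replicate 3, the library rich in macrophage transcripts, the differences for Ccl2 were 1.30, 1.54 and 0.73 in the same order, and without vehicle replicate 1 they were 2.23, 2.48 and 1.66. All 3 differences share the GRwt/wt libraries. By the same test the response of Fkbp5 differed by -3.42 in GRD+L/D+L (adjusted p 0.000285) and -3.37 in GRL/L (adjusted p 0.000356), and that of Per1 by -1.91 (adjusted p 0.00681) and -1.71 (adjusted p 0.0148). In fits of only the genotypes compared, Fkbp5 was called in GRL/L (adjusted p 0.0343) but not in GRD+L/D+L (0.312), and Per1 in neither (0.567 and 0.663). The Per1 call in GRL/L was also lost without any 1 of the 6 GRL/L libraries (adjusted p 0.053 to 0.0886).

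Levels were then compared between genotypes. In vehicle none of the 10 genes was called against GRwt/wt, where 8.32% of all genes were called in GRD+L/D+L, 7.78% in GRL/L and 0.00635% in GRD/D. The last value is 1 gene, and it became 376 (284 higher, 92 lower) without GRwt/wt vehicle replicate 3. In these comparisons 18 of 18 macrophage markers had an LFC below 0 in each mutant, with a median of -5.30 in GRD+L/D+L (15 called), -1.58 in GRL/L (1 called) and -1.69 in GRD/D (none called). GRwt/wt vehicle replicate 3 held 5843 CPM of these markers summed, and replicates 1 and 2 held 48.6 and 22.2 CPM. Those 2 lay below every GRL/L and GRD/D vehicle library (331 to 1134 CPM). GRD+L/D+L vehicle held 11.4 to 97.3 CPM. Csf1 was the 1 gene of the 10 with an unadjusted p under 0.05, in GRL/L, at 158, 141 and 164 CPM against 199 to 215 CPM in GRwt/wt (LFC -0.44, SE 0.16, adjusted p 0.0617). It had 156, 161 and 198 CPM in GRD+L/D+L (LFC -0.28, SE 0.16, adjusted p 0.218), and in GRD/D 276 and 241 CPM (LFC 0.31, SE 0.18, adjusted p 0.473). Without GRwt/wt vehicle replicates 1 and 3 the 3 Csf1 LFCs were -0.48, -0.33 and 0.25. The GRL/L and the GRD+L/D+L values of Csf1 thus all lay under those of GRwt/wt, and the GRD/D values above them. Of the 10 genes, 4 did not overlap GRwt/wt in GRD/D vehicle (Ccl2, Ccl7 and Csf1 higher, Cxcl12 lower), 2 in GRL/L vehicle (Csf1 and Lif, lower) and 2 in GRD+L/D+L vehicle (Il6 higher in CPM, from 7, 7 and 4 counts against 2, 2 and 4, and Csf1 lower), where 23.2%, 38% and 27.4% of all genes did not overlap. Cxcl5 in GRD+L/D+L had 120, 0 and 4 counts in the 3 vehicle libraries and 66, 0 and 7 with Dex, so that the libraries numbered 1 held nearly all of them. Against GRwt/wt in vehicle its LFC was -2.95 (SE 1.44, adjusted p 0.15), and it was -7.19 (adjusted p 0.0244) when GRD+L/D+L vehicle replicate 1 was left out, a value set by the 4 counts of the other 2 libraries and the prior count.

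Under Dex the GRwt/wt libraries were low and close to each other in Ccl2, and the fitted levels of both monocyte attractants were higher in all 3 mutants without reaching a call. Part of this order was present in vehicle. There GRD/D lay above GRwt/wt without overlap in Ccl2 (LFC 1.14, SE 0.67, adjusted p 0.474) and in Ccl7 (LFC 1.52, SE 0.92, adjusted p 0.482), and the Ccl2 LFC was 0.68 without GRwt/wt vehicle replicate 1. GRD+L/D+L overlapped GRwt/wt in vehicle, at LFCs of 0.30 for Ccl2 and 1.17 for Ccl7, as did GRL/L, at -0.36 and -0.14. Ccl2 had 4.04, 5.11 and 6.68 CPM in GRwt/wt, 7.18, 29.3 and 30.1 CPM in GRD+L/D+L, 14.8, 10.7 and 24.5 CPM in GRL/L and 32.4, 14.2 and 33.4 CPM in GRD/D. All 9 mutant libraries lay above all 3 GRwt/wt libraries. The LFC against GRwt/wt was 2.07 in GRD+L/D+L (unadjusted p 0.00487, adjusted p 0.0717, SE 0.64), 1.66 in GRL/L (adjusted p 0.131, SE 0.64) and 2.34 in GRD/D (unadjusted p 0.0021, adjusted p 0.143, SE 0.65). Whether Ccl2 was called turned on a library that is in none of the 3 contrasts but enters the model's filter, scaling and estimate of the spread. When GRwt/wt vehicle replicate 1 was left out of the model, Ccl2 was called in all 3 (adjusted p 0.0155, 0.0387 and 0.0429), at LFCs of 2.09, 1.66 and 2.34. In GRD+L/D+L it was also called with Dex replicate 1 left out (adjusted p 0.0353). In each comparison 2 of the 10 genes did not overlap GRwt/wt under Dex and were higher, Ccl2 with Il6 in GRD+L/D+L and Ccl2 with Ccl7 in the other two. The groups of 30% of all genes did not overlap in GRD+L/D+L, those of 42.7% in GRL/L and those of 23.8% in GRD/D. The 3 comparisons share the same 3 GRwt/wt Dex libraries.

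Ccl7 had 8.69, 16.3 and 23.8 CPM in GRwt/wt under Dex, 7.78, 112 and 128 CPM in GRD+L/D+L, 31.7, 26.1 and 46.0 CPM in GRL/L, and 104, 40.04 and 94.8 CPM in GRD/D. It did not overlap GRwt/wt in GRL/L or GRD/D, whereas GRD+L/D+L Dex replicate 1 was the lowest of all 23 libraries. The LFC was 2.34 in GRD+L/D+L (adjusted p 0.133, SE 0.88), 1.09 in GRL/L (adjusted p 0.466, SE 0.85) and 2.29 in GRD/D (adjusted p 0.31, SE 0.88). In GRD+L/D+L with Dex replicate 1 left out, the LFC was 2.89 and Ccl7 was called (adjusted p 0.0451). The sum of the macrophage markers under Dex was also higher than in GRwt/wt (20.6 to 121 CPM) in GRL/L (360 to 892 CPM) and in GRD/D (319 to 2044 CPM), with 18 of 18 markers at an LFC above 0 in each and none called. Its part in the chemokine levels was not tested there. In GRD+L/D+L, with 8 of 18 markers above 0, the sum was 94.1, 9.77 and 68.4 CPM in Dex replicates 1, 2 and 3, which held 7.18, 29.3 and 30.1 CPM of Ccl2 and 7.78, 112 and 128 CPM of Ccl7. Its part in these levels was not tested either.

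Il6 gave the 1 call among the 10 genes. Under Dex it had 2, 0 and 0 counts in GRwt/wt, 7, 2 and 6 in GRD/D, 2, 3 and 4 in GRL/L, and 3, 20 and 5 in GRD+L/D+L. Calls made up 2.75% of all genes in GRD+L/D+L, 2.59% in GRL/L and 0.254% in GRD/D. The fitted LFC in GRD+L/D+L was 3.70 (SE 0.99, adjusted p 0.0412). From the summed counts, 28 against 2, the ratio was 15 with an exact 95% interval of 3.79 to 130 from counting error alone. The call rested on GRD+L/D+L Dex replicate 2, which held 20 of the 28 counts, since Il6 no longer passed the filter without that library. Where any other single library was left out, the adjusted p for Il6 ran from 0.0182 to 0.146, the highest without GRwt/wt Dex replicate 3, and without a filter it was 0.0709. The ratio was 4.42 in GRL/L (interval 0.915 to 42) and 7.62 in GRD/D (interval 1.77 to 68.7), neither of them called.

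Among the remaining genes the LFCs against GRwt/wt under Dex had mixed signs, and none was called. Cxcl12 had lower fitted levels under Dex in GRD/D, at 89.0, 210 and 113 CPM against 108, 809 and 301 CPM in GRwt/wt (LFC -1.57, SE 0.55, unadjusted p 0.0109, adjusted p 0.261), with overlap, and without GRwt/wt Dex replicate 2 the LFC was -0.58. The LFC of Csf1 against GRwt/wt under Dex was 0.18 in GRD+L/D+L, 0.02 in GRL/L and 0.17 in GRD/D, each with an SE of 0.16. Lif had LFCs of 0.23 in GRD+L/D+L, 0.04 in GRL/L and 0.86 in GRD/D (adjusted p 0.458 in GRD/D), each with an SE of 0.41. Tslp had LFCs of -1.22 in GRD+L/D+L, -1.05 in GRL/L and -1.50 in GRD/D, with SEs of 0.84, 0.82 and 0.85.

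**Figure D3:**
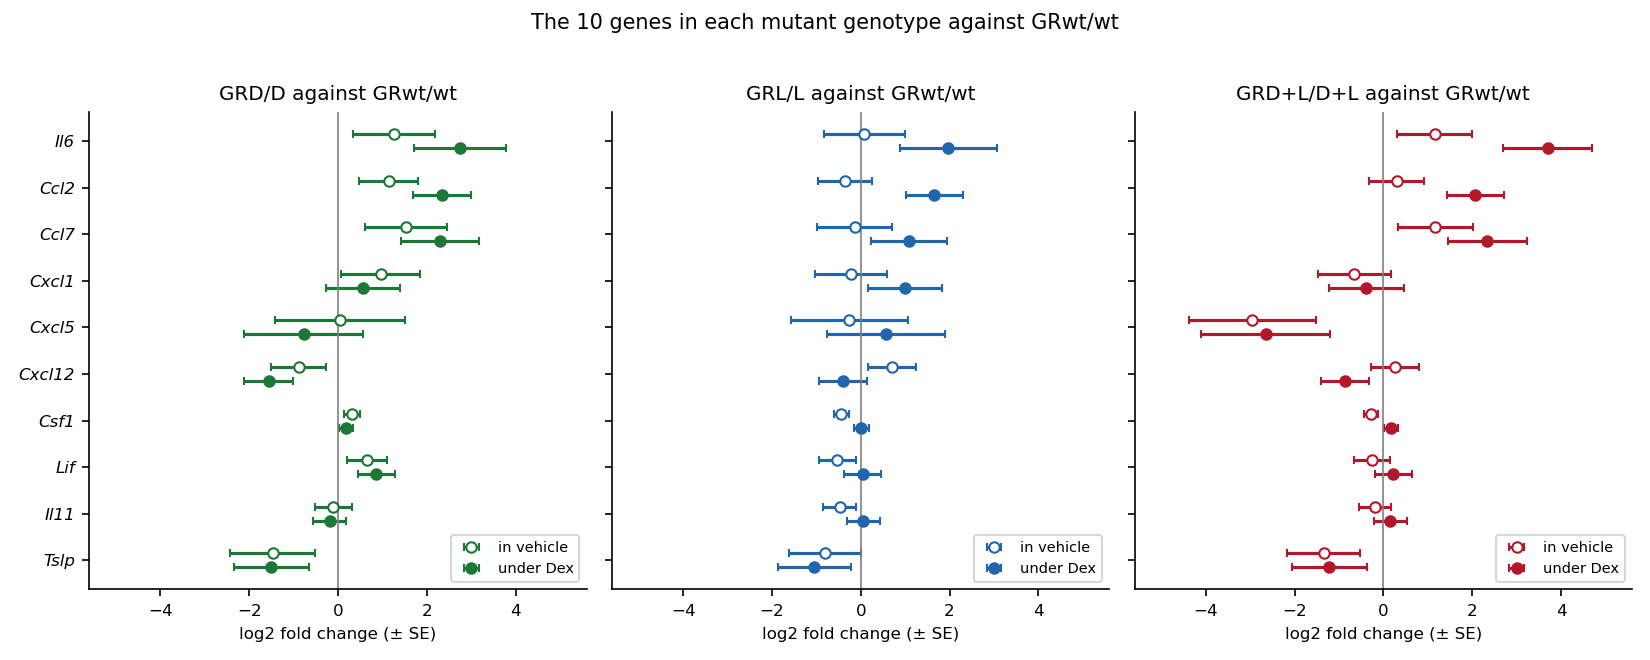
Log2 fold change of each mutant genotype against GRwt/wt (x axis) for the 10 genes (y axis), in vehicle (open) and under Dex (filled), with bars of 1 SE. Under Dex the points of Il6, Ccl2 and Ccl7 lie right of 0 in all 3 mutants (1.09 to 3.70), and Cxcl5 lies left of 0 in GRD+L/D+L in both conditions.

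Across libraries, 2 pairs of the 10 genes stood out. Ccl2 and Ccl7, which lie side by side, had a Pearson r of 0.918 for log2 CPM over 23 libraries, and Cxcl1 and Cxcl5 one of 0.844. No other pair exceeded 0.6, and the most negative was Cxcl12 with Csf1 (r -0.598). These values describe libraries that share cultures, genotype and treatment, and no test applies. Ccl7 was also the gene most like Ccl2 of all genes averaging at least 1 CPM, followed by Eaf1 (r 0.829), and Ccl2 was the gene most like Ccl7, followed by Mamdc2 (r 0.917). The genes most like Cxcl5 were Prr16 (r 0.936) and Zic1 (r 0.92), and those most like Cxcl1 were Vstm2a (r 0.853) and Cxcl5. Csf1 was most like Mpp1 (r 0.851) and Adra1d (r 0.812), Cxcl12 like Col6a6 (r 0.788) and Ppfia4 (r 0.782), and Lif like Artn (r 0.893) and Ier3 (r 0.805). Il11 was most like Tmem37 (r 0.839) and Stmn2 (r 0.792), Tslp like Gja1 and Hopx (r 0.762 each), and Il6 like Specc1 (r 0.747) and Nck2 (r 0.7).

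**Figure D4:**
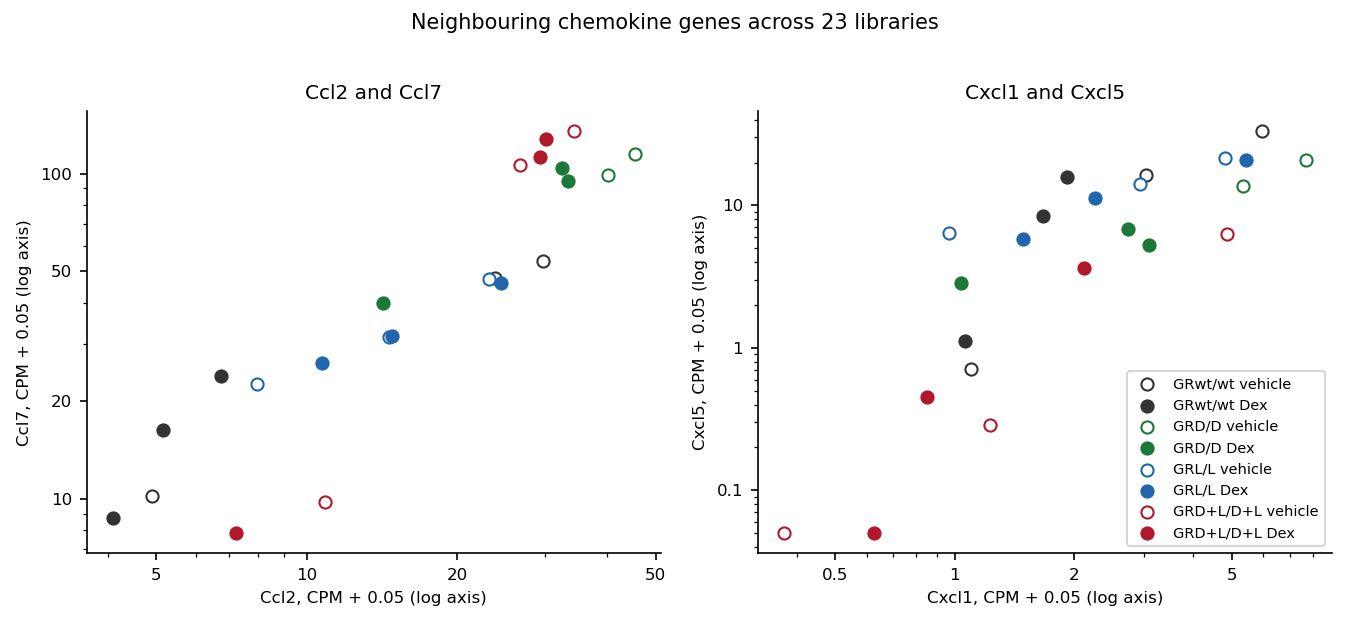
Ccl7 against Ccl2 and Cxcl5 against Cxcl1 in 23 libraries, each axis in CPM plus 0.05 on a log scale; open symbols are vehicle and filled symbols Dex. Both pairs rise together (r 0.918 and 0.844), and the GRD+L/D+L libraries numbered 1 lie below the other points in Ccl7 for their Ccl2.

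The receptors for these ligands were examined next. Of 14 receptor genes, 11 were tested and 0 were called with Dex in any genotype. Il6st, which encodes gp130, had 173 to 934 CPM over the 23 libraries, lowest in GRwt/wt vehicle replicate 1, and is named for its role rather than its values. Il6ra, the ligand-binding subunit for Il6, had an LFC of 0.84 with Dex in GRwt/wt (SE 0.31, adjusted p 0.214). Csf1r, the receptor for Csf1 on macrophages, had 1.93, 2.42 and 130 CPM in GRwt/wt vehicle and 1.21, 2.76 and 1.81 CPM with Dex (LFC -4.53, SE 1.28, adjusted p 0.148), with vehicle replicate 3 far above every other GRwt/wt library. Cxcr4, the receptor for Cxcl12, showed the same layout, at 0.938, 0.805 and 43.4 CPM in vehicle against 0.657, 1.08 and 0.499 CPM with Dex, and Il7r, a subunit of the Tslp receptor, had 23.2 CPM in that library against 0.101 to 1.03 CPM elsewhere in GRwt/wt. Csf1r, Cxcr4 and Il7r were called lower in GRD+L/D+L vehicle (LFC -4.89, -4.19 and -4.97, adjusted p 0.0159, 0.0181 and 0.0397), in a comparison in which 15 of 18 macrophage markers were also called lower. Without GRwt/wt vehicle replicate 3 none of the 3 was called there, at an LFC of -0.48 for Csf1r, -0.03 for Cxcr4 and 1.16 for Il7r. In GRwt/wt vehicle replicate 3 itself, Ccl2 (29.7 CPM, with 23.7 CPM in replicate 2), Ccl7 (53.6 CPM, with 47.6 CPM in replicate 2) and Il6 (4 counts, with 2 in each of the others) were highest of the 3 vehicle libraries, and Csf1 (199 CPM), Cxcl12 (123 CPM) and Il11 (1.90 CPM) were lowest. The other 4 of the 10 genes lay between the other libraries.

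**Figure D5:**
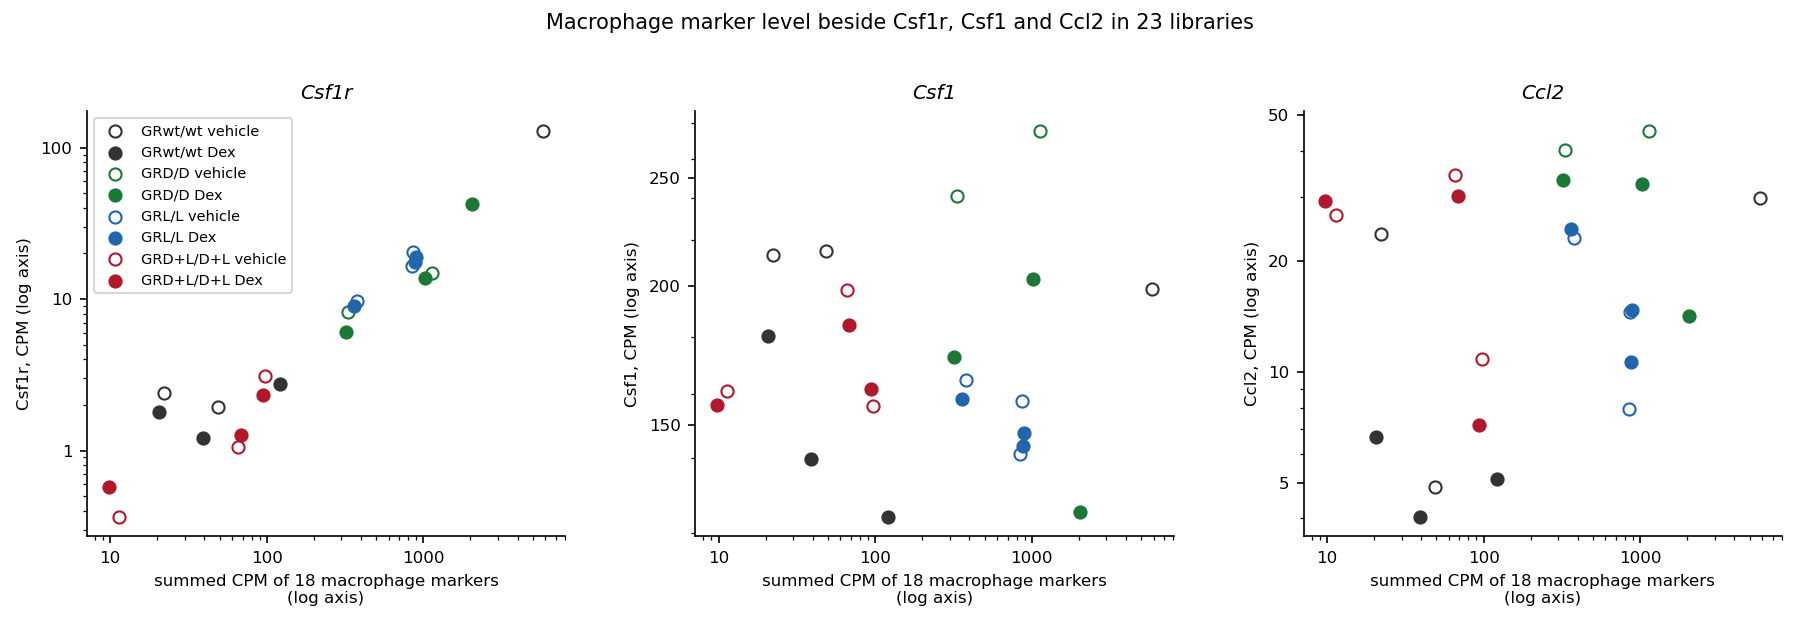
Level of Csf1r, Csf1 and Ccl2 (y axis, CPM, log scale) against the summed CPM of 18 macrophage markers (x axis, log scale) in 23 libraries. Csf1r, itself 1 of the 18 markers, follows the sum up to 130 CPM at 5843 CPM. At sums of 319 CPM or more, Csf1 lies between 125 and 276 CPM and Ccl2 between 7.91 and 45.4 CPM. At sums up to 121 CPM, Csf1 lies between 124 and 215 CPM and Ccl2 between 4.04 and 34.3 CPM.

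Ackr1, an atypical receptor that scavenges chemokines such as Ccl2, Ccl7 and Cxcl5, was the receptor gene called in most comparisons, at low counts. No GRL/L or GRD+L/D+L library reached the filter's cutoff, so Ackr1 was tested only because of the genotypes in which it was higher. It had 12, 8 and 10 counts in GRwt/wt vehicle, 0, 3 and 2 in GRL/L vehicle and 0, 0 and 1 in GRD+L/D+L vehicle. Under Dex it had 9, 13 and 18 counts in GRwt/wt, 1, 0 and 2 in GRL/L and 1, 0 and 1 in GRD+L/D+L. All 12 libraries of these 2 mutants thus lay below all 6 GRwt/wt libraries in counts. In vehicle the ratio of GRwt/wt to mutant from summed counts was 29.7 for GRD+L/D+L (exact 95% interval 4.93 to 1210, adjusted p 0.0074) and 5.70 for GRL/L (2.19 to 18.8, adjusted p 0.0416). Under Dex it was 18.6 (4.83 to 159, adjusted p 0.0218) and 13.6 (4.32 to 68.6, adjusted p 0.0226). In GRD/D, with 8 and 21 counts in vehicle and 7, 7 and 2 under Dex, Ackr1 was not called. In vehicle the GRD+L/D+L call held when any single library was left out. The other 3 did not always hold, with adjusted p reaching 0.137 (GRL/L vehicle), 0.107 (GRL/L Dex) and 0.108 (GRD+L/D+L Dex) without 1 library of the mutant. Without an expression filter the GRL/L vehicle call was lost (adjusted p 0.0819) and the other 3 held (0.0152 to 0.042), and in a fit of the 2 genotypes alone none of the 4 was called (adjusted p 0.0519 to 0.115).

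Of 25 other cytokine and chemokine genes, 16 were tested. None was called with Dex, and the 3 smallest p-values in GRwt/wt belonged to Cxcl16, Tnf and Cxcl10, for all of which vehicle replicate 3 was the high library. Cxcl16, a chemokine of macrophages and fibroblasts, had 6.84, 5.42 and 33.8 CPM in vehicle and 3.13, 5.58 and 4.99 CPM with Dex, and it was called lower in GRD+L/D+L vehicle (LFC -1.90, SE 0.52, adjusted p 0.0179), but not without GRwt/wt vehicle replicate 3 (LFC -0.52, adjusted p 0.248). Tnf had 1, 0 and 71 counts in vehicle and 0 in all 3 Dex libraries, and Cxcl10 had 1, 3 and 69 against 1, 8 and 2. All 8 genes of a list of factors that act on the stability of cytokine mRNA were tested and none was called in any comparison, all of them being under the fold threshold where the adjusted p passed. Zfp36, which encodes tristetraprolin, had an LFC of -0.87 in GRL/L against GRwt/wt under Dex (SE 0.22, adjusted p 0.0276) and -0.64 in vehicle (SE 0.22, adjusted p 0.0428). Zfp36l1, a relative of it, had an LFC of 0.67 in GRD+L/D+L vehicle (adjusted p 0.0115, SE 0.17) and 0.64 in GRL/L vehicle (adjusted p 0.0118, SE 0.17). In GRwt/wt with Dex, Zfp36l1 had an LFC of 0.41 (SE 0.17, adjusted p 0.264), Zfp36 one of 0.26 (SE 0.22) and Zc3h12a, which encodes regnase-1, one of -0.24 (SE 0.19).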

How the data were processed

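The deposited table held raw read counts per gene. Per the study's methods and the submitters' processing notes, the authors sequenced TruSeq libraries on a NovaSeq, mapped reads to mm10 (GRCm38) with HISAT2 2.1.0 and counted them with featureCounts 2.0.0. The annotation release and strandedness were not given in the sources used here. Symbols and coordinates came from GENCODE M21. All 23 libraries entered 1 edgeR 4.0.16 quasi-likelihood model (R 4.3.3) with 8 group means, TMM scaling, filterByExpr and a prior count of 0.125, and the SE was derived from the LFC and F. CPM are TMM-scaled. Intervals from summed counts are exact (Clopper-Pearson) and cover counting error only.

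Named were the 10 genes, their 2 most similar genes each, 4 glucocorticoid-induced genes, and receptor, cytokine and mRNA-decay genes called in a comparison or, with none called, the 3 with the smallest p (Il6st was added after values were seen). Genes and lists were chosen with earlier results of these data known. Same-numbered vehicle and Dex libraries correlated in their deviations from group means at 0.545 to 0.944 in GRL/L or GRD+L/D+L, but at -0.291 to 0.599 in the other two genotypes, so numbers were read as pairs only in the former. Alternatives were RLE and upper-quartile scaling, no filter, at least 10 counts in each library, calls by adjusted p without a fold threshold, fits of only the genotypes compared, a prior count of 2, DESeq2 1.42.0, a replicate block and leaving out libraries. The test was checked on simulated data.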

Additional observations from a re-analysis of the deposited data

How the results depend on the processing

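The number of the 10 genes called was 0 in every comparison but GRD+L/D+L against GRwt/wt under Dex, where it was 1. In that comparison it was 0 without a filter, with at least 10 counts in every library and in a fit of only the genotypes compared (Il6 was not tested in the latter 2), 3 with DESeq2 (Il6, Ccl2 and Ccl7), 2 without GRwt/wt vehicle libraries 1 and 3, and 0 to 3 over single libraries left out. In GRD/D under Dex DESeq2 called 1 (Ccl2), as did the fit without both vehicle libraries in GRD/D and GRL/L, and single omissions gave 0 to 1 in both and in GRD+L/D+L vehicle. The replicate block pairs libraries by number, and in GRwt/wt the numbers may not mark pairs. With it, Ccl2 was called lower with Dex in GRwt/wt (1 of 10, LFC -1.60, adjusted p 0.0499). Tslp turned to 0.082, which left 8 of the 10 below 0 there (median -0.58). The block was fitted only for the Dex responses and their differences, where it changed no other call among the 10. In GRwt/wt vehicle replicate 2 deviated most like Dex replicate 3 (r 0.645 across genes) and vehicle replicate 3 like Dex replicate 2 (0.438), and in GRD/D vehicle replicate 2 like Dex replicate 3 (0.626), so the numbers may not mark pairs there. They were not crossed. Over single omissions in GRwt/wt the LFC ran from -0.59 to 1.15 for Tslp and from -1.83 to 0.00039 for Cxcl5. In GRD/D it ran from -1.06 to 1.41 for Il6, -0.76 to 0.24 for Lif, -0.0037 to 0.67 for Cxcl12 and -1.22 to 0.46 for Tslp. The cause was not tested. Over all genes, DESeq2 called 286 (121 higher, 165 lower) with Dex in GRwt/wt against 25 (all higher), 5 in GRD+L/D+L and 2 in GRD/D against 0, and 10, 20 and 22 differences in response (GRD/D, GRL/L, GRD+L/D+L) against 0, 4 and 4. The block gave 199 in GRwt/wt, 7 in GRD/D and 11, 22 and 16 differences. Fits of only the genotypes compared gave 0 in GRwt/wt, 2 in GRD/D and 0, 1 and 0 differences. Between genotypes in vehicle (1, 1225 and 1311 called) such fits gave 0, 705 and 111, DESeq2 gave 30 in GRD/D, adjusted p alone 2, 3628 and 3216, and at least 10 counts in each library 715 in GRD+L/D+L and 0 in GRD/D. Under Dex (40, 408 and 433) such fits gave 4, 104 and 15, DESeq2 279, 770 and 816, adjusted p alone 862 and 770 in the latter 2, at least 10 counts 271 and 277 there, and upper-quartile scaling 21 in GRD/D. Without GRwt/wt vehicle libraries 1 and 3 the counts were 2 with Dex in GRD/D, 1 and 7 differences (GRD/D, GRL/L), 56 in GRD/D vehicle, and 487, 1193 and 1076 under Dex. Without a filter 2 differences were called in GRD+L/D+L, and with at least 10 counts 1 gene with Dex in GRD/D. Over single libraries left out, calls with Dex ran from 14 to 374 in GRwt/wt and 0 to 2 in GRD/D, differences in response from 0 to 3, 1 to 9 and 2 to 11 (GRD/D, GRL/L, GRD+L/D+L), genotype calls in vehicle from 0 to 376, 791 to 2674 and 586 to 2003, and those under Dex from 5 to 306, 148 to 952 and 94 to 959. The highest counts came without a GRwt/wt vehicle library in each of these. Low counts limit Il6 (0 to 20 a library), Tslp (3 to 44) and Cxcl5 (0 to 616), and the SE of the Dex response in GRwt/wt was 0.64 for Ccl2 and 1.33 for Cxcl5.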
